A study of Mus musculus with 6 samples.

Results

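The 38 genes described here encode the enzymes that build, attach and remodel asparagine-linked glycans (N-glycans) on secreted and membrane proteins. They were chosen by gene symbol for their place in the pathway. The rule uses no measured value, but the list was drawn up with earlier results of these data known. All 38 were found among the 21899 genes listed for each sample and had enough counts to be tested. The samples were induced regulatory T cells (iTregs), made by culturing splenic CD4+ T cells in Treg-polarising conditions for 2 days with 4-hydroxytamoxifen, the drug that switches on tamoxifen-inducible Cre recombinase. The 3 KO samples came from mice labelled Dlst-Treg iKO and the 3 WT samples from mice labelled iWT, and both were sorted, before bulk mRNA sequencing, for cells carrying CD4, tdTomato and a GFP reporter of FoxP3. The targeted gene, Dlst, codes for dihydrolipoamide succinyltransferase, a core enzyme of 2-oxoglutarate oxidation in the TCA cycle. The Cre driver, the age of the mice and their number stand in none of the sources used here, and no label says whether the samples of a group are separate mice or cultures. The p-values therefore speak of the spread among these 6 samples, part of which may be technical.

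N-glycans are first assembled on the lipid dolichol at the membrane of the endoplasmic reticulum (ER), by the ALG enzymes that add single sugars in a fixed order. The oligosaccharyltransferase (OST), a membrane complex, then moves the finished glycan as a block onto asparagines of nascent proteins. Glucosidases in the ER and mannosidases in the Golgi trim it, and Golgi transferases add branches, fucose, galactose and sialic acid. In T cells, branching by MGAT5 sets how well galectins bind surface receptors, and is known for restraining T cell receptor signalling.

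Libraries held 49772670, 33590510 and 39049039 estimated counts in KO replicates 1 to 3 and 35647816, 47526481 and 46359646 in WT replicates 1 to 3. Dlst itself had 125, 129 and 129 CPM in KO replicates 1 to 3, against 161, 149 and 149 CPM in WT replicates 1 to 3 (CPM, counts scaled to library size). Its log2 fold change was -0.26 (SE 0.05, edgeR adjusted p 0.0894), and levels of single exons were not analysed here. Cd3e, Cd4 and Foxp3, which define the labelled cells, were present in every sample. Cd4 had 465, 445 and 432 CPM in KO, against 507, 506 and 522 CPM in WT, with every KO sample below every WT sample, and Foxp3 had 231, 207 and 227 CPM in KO, against 154, 202 and 198 CPM in WT, with every KO sample above. Of the 8 CD4 and Treg markers, all tested, 2 were above 0 (Foxp3 and Trac) and 6 below, and 1 passed the threshold, Ikzf2 (Helios), with a log2 fold change of -0.57 and an edgeR adjusted p of 0.0366. KO replicate 1 stood apart: the Y-linked genes Ddx3y, Eif2s3y, Kdm5d and Uty were at 80.8, 82.4, 61.8 and 28.2 CPM there. In the other 5 samples Eif2s3y was at 0, and Kdm5d, the highest of these genes, at 0.624 to 1.22 CPM. KO replicate 1 thus held male cells, and the other samples few or none. Of the members, Alg13 and Magt1 lie on the X chromosome. The part of sex in the values below was not tested. Summed neutrophil markers (9 genes, none at 0 in every sample) were at 300.1, 74.4 and 73.5 CPM in KO replicates 1 to 3 and 31.8, 7.48 and 4.78 CPM in WT replicates 1 to 3. Summed monocyte and macrophage markers (9 genes, none at 0 in every sample) were at 351, 91.4 and 102 CPM in KO replicates 1 to 3 and 29.2, 21.6 and 20.6 CPM in WT replicates 1 to 3. All 8 tested neutrophil markers and all 7 tested monocyte and macrophage markers had log2 fold changes above 0. Of these, 1 monocyte and macrophage marker passed the threshold, higher in KO, and no neutrophil marker did. All 7 tested B cell markers were below 0. Their sums were 195, 159 and 165 CPM in KO replicates 1 to 3, against 292, 167 and 119 CPM in WT. All 5 tested CD8 and NK markers were above 0. Their sums were 162, 134 and 138 CPM in KO replicates 1 to 3, against 97.8, 137 and 89.5 CPM in WT. The sums of both lists overlapped between the groups. The part of other cell types in the values below was not tested. In bulk samples fewer cells of a type and less RNA per cell cannot be told apart.

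None of the 38 N-glycan genes differed between KO and WT past the threshold (edgeR quasi-likelihood test, adjusted p under 0.05 over all tested genes). This compares with 0.674% of the 12768 tested genes that passed it, made up of 0.454% higher and 0.219% lower in KO. At an unadjusted p under 0.05, 1 member was higher and 9 were lower, against 8.47% and 6.6% of all tested genes. DESeq2 called 2 members, Ddost and Dad1, and 3.95% of the genes it tested. Ddost also passed in edgeR with no filter on low counts (0.762% of genes called) and without KO replicate 1 and WT replicate 1 together (4.21%), and Dad1 without WT replicate 2 (0.21%). The members leaned one way: 31 of 38 had a log2 fold change below 0, against 50.9% of all tested genes, with a median of -0.08 against -0.0029 over all tested genes. In 13 of the 38 every KO sample lay below every WT sample in CPM, a share of 34.2% where 10.9% of all tested genes did so, and in 1, Dad1, every KO sample lay above every WT sample (11.9% of all tested genes). In TPM, the deposited values per gene length, the groups overlapped in Dpagt1, Alg13, Alg14, Stt3a and Tusc3 of these 13, while Alg11, Magt1 and Man1a2 lay lower in every KO sample. The shares of all tested genes given here are for CPM, and none was computed for TPM. Members of a pathway are not independent of each other, and 21 of the 38 were at their lowest in KO replicate 1, as were 26.6% of all tested genes. Without KO replicate 1, 27 of 38 were below 0, and without it and WT replicate 1 together, 25 of 38.

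With all samples, the transfer stage lay lowest of the 3 stages by its median and the trimming and branching stage nearest to 0. The median log2 fold change was -0.09 over the 16 genes of lipid-linked assembly, with 14 below 0. It was -0.13 over the 9 OST genes, with 8 below 0, and -0.02 over the 13 genes of trimming and branching, with 9 below 0. Without WT replicate 1 the medians stood, in the same order of stages, at -0.08, -0.07 and -0.05, and the assembly stage, not the transfer stage, lay lowest. They stood at -0.09, -0.11 and -0.01 when KO replicate 1 was left out, and with both of these samples left out at -0.07, -0.05 and 0.01, where the assembly stage again lay lowest. Sample by sample, the median member of the assembly stage stood, in log2 units from its WT mean, at -0.12, -0.09 and -0.10 in KO, against 0.04, -0.01 and -0.03 in WT, so the groups did not overlap. The median OST gene stood at -0.24, -0.09 and -0.13 in KO, against 0.06, -0.07 and -0.03 in WT, where again each KO sample lay below each WT sample, with KO replicate 1 lowest. The median trimming and branching gene stood at -0.11, -0.02 and 0.01 in KO, against 0.01, 0.01 and -0.02 in WT, and the groups overlapped. No test was made of the medians, nor of differences between stages.

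**Figure D1:**
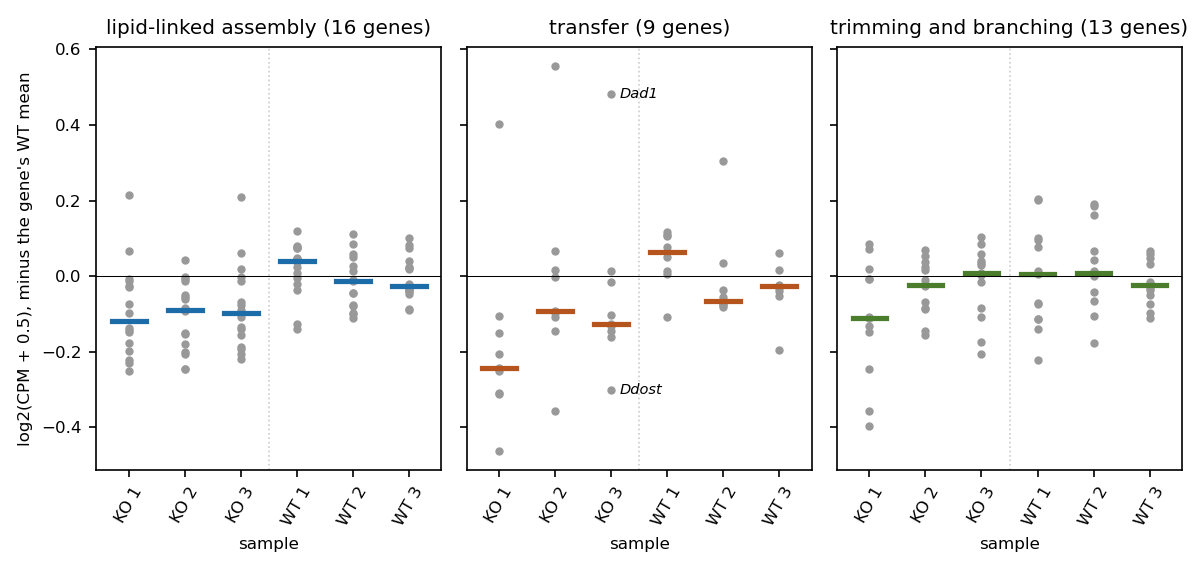
Level of each gene (grey points) in each sample, as log2(CPM + 0.5) minus the gene's mean over the 3 WT samples, for 16 genes of lipid-linked assembly, 9 of transfer and 13 of trimming and branching; coloured bars are the stage's median in that sample. The assembly and transfer bars lie lower in the 3 KO samples than in the 3 WT samples, and Dad1 and Ddost lie at opposite ends of the transfer stage.

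Per length, the median OST gene stood above that of the other stages. In TPM, the authors' values scaled by gene length and library total, the median OST gene had a mean of 127 TPM over the 6 samples, the median gene of trimming and branching 48.4 TPM and the median assembly gene 22.7 TPM. B4galt1, a galactosyltransferase of the Golgi, had the highest level of the 38, at 187 ± 17.0 TPM in KO and 217 ± 28.3 TPM in WT (SD, n = 3 each), and Alg6, which adds the first glucose, the lowest, at 5.72 ± 0.150 TPM in KO and 7.51 ± 0.688 TPM in WT.

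Summed over the 9 OST genes the levels were 968, 1086 and 1046 TPM in KO, against 1160.0, 1077 and 1091 TPM in WT. KO replicate 2 lay above WT replicate 2, so these sums overlapped. The 16 assembly genes summed to 383, 377 and 383 TPM in KO, against 417, 401 and 407 TPM in WT. The 13 trimming and branching genes summed to 741, 799 and 793 TPM in KO, against 850.3, 863 and 851 TPM in WT. In both of these sums each KO sample lay below each WT sample, with means of 381 ± 3.74 TPM in KO and 408 ± 7.95 TPM in WT for assembly and of 777 ± 31.7 TPM in KO and 855 ± 6.92 TPM in WT for trimming and branching (SD, n = 3 each). On the log2(TPM + 1) scale 34 of the 38 genes were below 0, against 31 on the CPM scale, and the median over all tested genes was -0.02 against -0.0029. No member passed the threshold with limma on log2(TPM + 1), where 0.447% of genes did. The order of the stages depended on the measure. In mean summed TPM, KO differed from WT by -9.02% in trimming and branching, -6.85% in transfer and -6.73% in assembly.

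**Figure D2:**
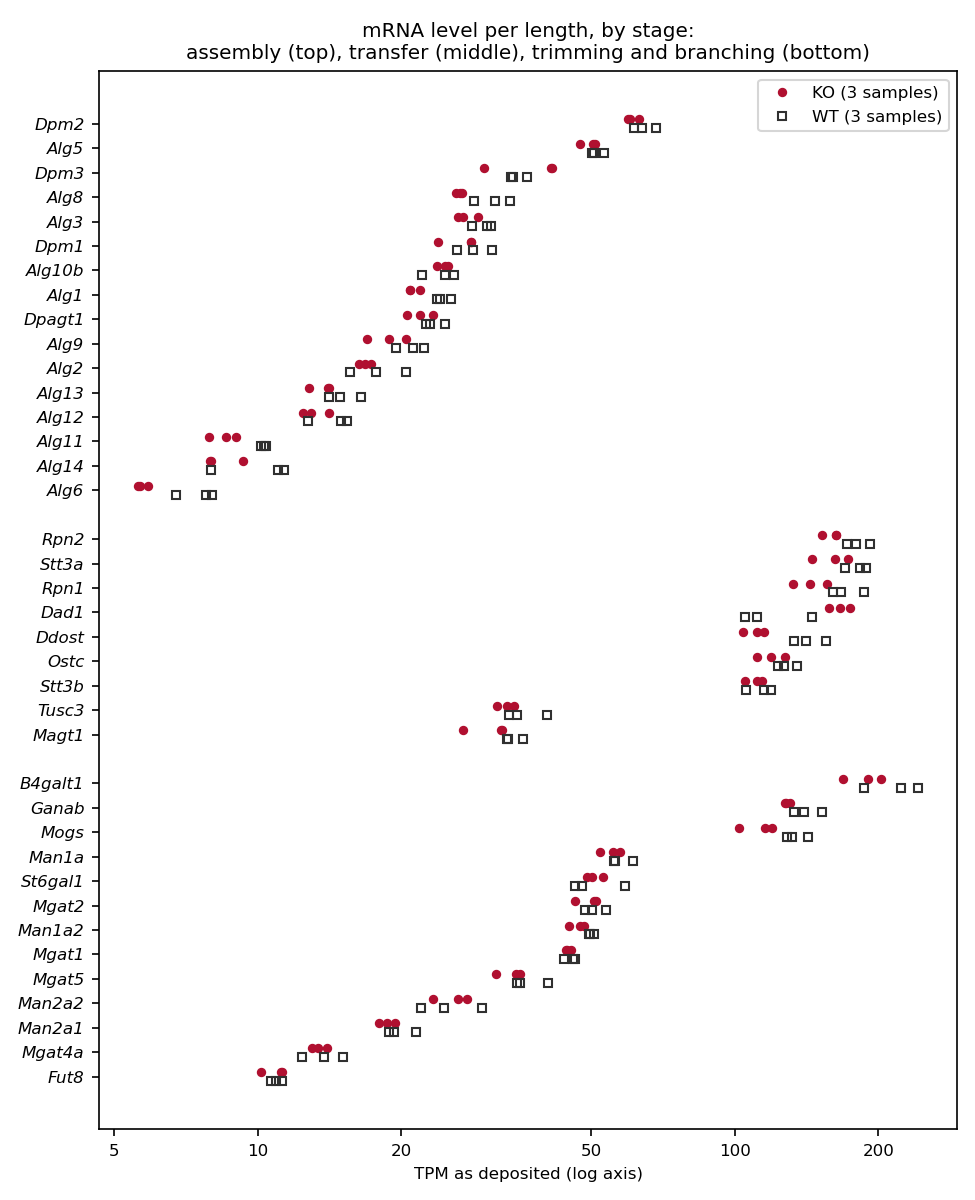
TPM of each of the 38 genes in each sample on a log axis, with KO samples (filled circles) drawn above WT samples (open squares) of the same gene, in 3 blocks by stage. B4galt1 has the highest mean and Alg6 the lowest; among the OST genes, the KO circles of Dad1 lie right of its WT squares and those of Ddost lie left.

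Among the OST subunits, Ddost and Dad1 were the extremes. Both encode non-catalytic subunits shared by all OST complexes: the DDOST protein is the OST48 subunit, and DAD1 is a small membrane subunit first known as a defender against cell death. Ddost had 126, 136 and 141 CPM in KO replicates 1 to 3, against 188, 165 and 170.4 CPM in WT replicates 1 to 3. The groups did not overlap, and KO replicate 1 was lowest. The means were 134 ± 7.51 CPM in KO and 174 ± 11.8 CPM in WT (SD, n = 3 each). The Ddost log2 fold change of -0.38 with an SE of 0.07 had a 95% interval of -0.53 to -0.22, a ratio of 0.771. The edgeR adjusted p was 0.0683, above the threshold, and DESeq2 gave 0.000181, with 0.000181 to 0.164 over all alternatives. Without KO replicate 1 the log2 fold change was -0.33, and without KO replicate 1 and WT replicate 1 together it was -0.28 (edgeR adjusted p 0.0152).

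Dad1 had 80.7, 89.8 and 85.3 CPM in KO replicates 1 to 3, against 56.4, 75.3 and 53.2 CPM in WT replicates 1 to 3. Every KO sample lay above every WT sample, with WT replicate 2 nearest to the KO samples. The means were 85.3 ± 4.55 CPM in KO and 61.6 ± 12.0 CPM in WT (SD, n = 3 each). The Dad1 log2 fold change of 0.47 with an SE of 0.13 had a 95% interval of 0.17 to 0.77, a ratio of 1.38. The edgeR adjusted p was 0.176, DESeq2 gave 0.0122, and without WT replicate 2 the log2 fold change was 0.64 (edgeR adjusted p 0.0396). Over all alternatives its adjusted p lay between 0.0122 and 0.390 (edgeR, DESeq2 and limma).

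The ribophorins Rpn1 and Rpn2, large shared subunits of the complex, and the catalytic subunit Stt3a followed Ddost in direction with smaller differences. Rpn1 had 189.9, 219 and 211 CPM in KO replicates 1 to 3, against 254, 223 and 232 CPM in WT replicates 1 to 3. Rpn2 had 241, 259 and 259 CPM in KO replicates 1 to 3, against 302, 276 and 282 CPM in WT replicates 1 to 3. Stt3a, which glycosylates proteins as they enter the ER, had 202, 234 and 229 CPM in KO replicates 1 to 3, against 259, 239 and 253 CPM in WT replicates 1 to 3. In all 3 genes each KO sample lay below each WT sample in CPM, with KO replicate 1 lowest and WT replicate 1 highest. KO replicate 1, which was lowest in 8 of the 9 OST genes, also had the highest summed neutrophil and macrophage markers, whose part was not tested. The Rpn1 log2 fold change was -0.19 (SE 0.07), that of Rpn2 -0.18 (SE 0.06) and that of Stt3a -0.18 (SE 0.07), with edgeR adjusted p of 0.278, 0.215 and 0.295. Without KO replicate 1 and WT replicate 1 together, they were -0.08, -0.11 and -0.09, and Stt3a was at -0.11 without KO replicate 1 alone.

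Mammalian cells carry another catalytic subunit, Stt3b, which modifies sites that STT3A has skipped, and it lay closer to 0. Stt3b had 255, 277 and 271 CPM in KO replicates 1 to 3, against 277, 260.5 and 286 CPM in WT replicates 1 to 3. The groups overlapped, and the log2 fold change of -0.04 with an SE of 0.06 had a 95% interval of -0.17 to 0.10. The ratio of Stt3a to Stt3b, in TPM, was 1.38, 1.52 and 1.46 in KO replicates 1 to 3, against 1.64, 1.61 and 1.54 in WT replicates 1 to 3. Each KO ratio lay below each WT ratio, and the log2 ratio was -0.14 in KO relative to WT. The exact permutation test, two-sided, gave p = 0.1, the smallest that 3 against 3 samples allow, and 0.4 after Benjamini-Hochberg adjustment over the 4 pairs compared.

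Ostc, an accessory subunit of the STT3A complex, had 68.1, 78.5 and 73.2 CPM in KO, against 82.2, 76.7 and 77.2 CPM in WT, with overlapping groups and a log2 fold change of -0.10 with an SE of 0.07. Magt1 and Tusc3 encode alternative thiol oxidoreductase subunits of the STT3B complex. Magt1 had 56.6, 70.2 and 67.6 CPM in KO, against 67.2, 68.6 and 65.2 CPM in WT, which overlapped in CPM (log2 fold change of -0.05, SE 0.08, 95% interval -0.24 to 0.14). Tusc3 had 33.8, 35.2 and 34.2 CPM in KO, against 40.8, 35.9 and 36.2 CPM in WT. Its KO samples all lay below its WT samples by a small margin (log2 fold change of -0.13, SE 0.07, edgeR adjusted p 0.408). It was at -0.07 without WT replicate 1, and Ostc was at -0.05 without KO replicate 1. The Magt1 to Tusc3 ratio in TPM was 0.809, 0.945 and 1.02 in KO replicates 1 to 3, against 0.889, 0.989 and 0.957 in WT replicates 1 to 3, and these ratios overlapped (log2 ratio -0.04 in KO relative to WT, exact permutation p = 0.8).

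**Figure D3:**
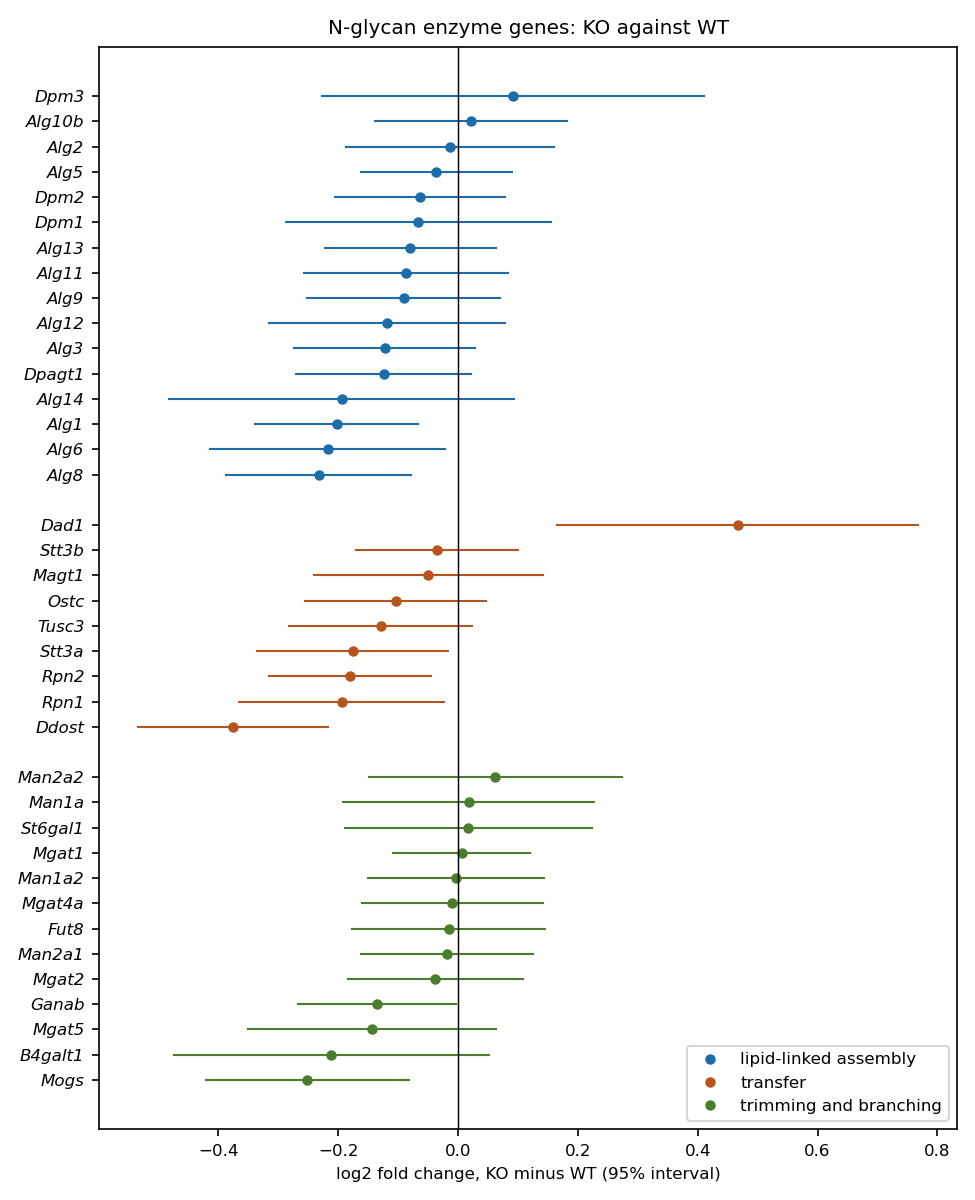
Log2 fold change of each of the 38 genes, KO minus WT (points), with its 95% interval from the edgeR fit (lines), grouped by stage and ordered by value within each. Dad1 at 0.47 and Ddost at -0.38 are the extremes, and the intervals of all 11 Golgi enzymes take in 0.

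The promoters of Ddost and Dad1 are shown because their mRNAs lay at opposite ends of the OST genes, and that of Alg12, a mannosyltransferase of the assembly stage, because it alone among the members with a promoter on record held the ER stress response element (ERSE). The ERSE, CCAAT and CCACG separated by 9 bases, is the site through which the unfolded protein response is known to act. Each line gives 300 bases, from RefSeq on GRCm38.p6, from 250 bases before the RefSeq start of the gene to 50 after it, a start that need not be the end of the GENCODE gene given for Ddost and Dad1, with CCAAT and CCACG on either strand in capitals.
Ddost chr4:138304488-138304787 plus strand: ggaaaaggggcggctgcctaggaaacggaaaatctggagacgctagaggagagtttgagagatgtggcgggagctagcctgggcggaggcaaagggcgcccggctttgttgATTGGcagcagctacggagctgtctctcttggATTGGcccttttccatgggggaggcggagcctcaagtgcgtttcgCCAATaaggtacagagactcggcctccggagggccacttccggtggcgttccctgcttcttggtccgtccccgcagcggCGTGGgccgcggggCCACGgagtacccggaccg
Dad1 chr14:54253880-54254179 minus strand: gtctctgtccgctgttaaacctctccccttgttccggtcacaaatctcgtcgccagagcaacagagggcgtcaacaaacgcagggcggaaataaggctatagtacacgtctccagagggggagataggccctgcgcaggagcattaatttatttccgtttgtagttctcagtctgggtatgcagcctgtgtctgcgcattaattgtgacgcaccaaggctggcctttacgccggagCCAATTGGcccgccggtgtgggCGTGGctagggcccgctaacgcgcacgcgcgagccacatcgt
Alg12 chr15:88819269-88819568 minus strand: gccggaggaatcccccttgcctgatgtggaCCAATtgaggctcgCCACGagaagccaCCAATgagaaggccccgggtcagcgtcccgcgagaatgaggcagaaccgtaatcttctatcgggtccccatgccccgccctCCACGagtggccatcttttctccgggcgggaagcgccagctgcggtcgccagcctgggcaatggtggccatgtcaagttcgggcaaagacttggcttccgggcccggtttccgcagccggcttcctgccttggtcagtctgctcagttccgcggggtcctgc
The Ddost window held 3 CCAAT and 2 CCACG, the Dad1 window 2 CCAAT and 1 CCACG, and the Alg12 window 2 CCAAT and 2 CCACG. Of the 38 members, 31 had a window. Members were counted by gene and all windows singly, so the shares below are in unlike units where a gene has more than 1 window. CCAAT was in 20 of the 31 and in 37.4% of all 32851 windows, and CCACG in 18 of the 31 and in 32.8% of all windows. The complete ERSE was in 1 of the 31 (Alg12) and in 0.119% of all windows; its outer letters were counted as CCAAT and CCACG too. Also searched on both strands were ERSE-II, ATTGG and CCACG separated by 1 base, and the unfolded protein response element UPRE, TGACGTGG. Neither was in a member's window, against 0.0365% and 0.676% of all windows. Alg12 itself had 16.0, 14.4 and 14.0 CPM in KO, against 17.0, 15.0 and 16.3 CPM in WT, with overlapping groups and a log2 fold change of -0.12 with an SE of 0.09. These matches are letters in a window, and binding was not measured.

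Ddost and Dad1 were looked at as the members with the largest fall and the largest rise. Each lay among neighbours with log2 fold changes mostly on the same side of 0. The counts and medians below include the gene itself, whose side of 0 was set by that choice. Ddost lies on the plus strand at chr4:138304730-138312628 (GENCODE M21, GRCm38). Of the 8 tested genes that start within 500 kb of its start, itself included, 7 were below 0, none passed the threshold, and the median was -0.30. Among all tested genes 50.9% were below 0. The nearest tested gene downstream is Pink1, a kinase of mitochondrial quality control on the opposite strand, whose 3' end is 780 bases from that of Ddost. Pink1 had 50.7, 33.5 and 35.9 CPM in KO, against 69.0, 64.3 and 63.9 CPM in WT, with a log2 fold change of -0.71 (SE 0.15) and an edgeR adjusted p of 0.104. Its KO samples all lay below its WT samples. The nearest gene past the threshold was Padi2, 2.60 Mb away, at -0.62.

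Dad1 lies on the minus strand at chr14:54235479-54254104. Of 19 tested genes in the same span around it, itself included, 16 were above 0, none passed the threshold, and the median was 0.37. Among all 12768 tested genes 6273 were above 0. Trac, the constant segment of the T cell receptor alpha chain, had 416, 441 and 421 CPM in KO, against 289.8, 359.8 and 263 CPM in WT, with a log2 fold change of 0.49 (SE 0.11) in CPM. In TPM, Trac had 892, 936 and 905 TPM in KO, against 948, 908 and 855 TPM in WT, where the groups overlapped, whereas the TPM of Dad1 did not overlap, at 157, 175 and 166 TPM in KO, against 111, 145 and 105 TPM in WT. Abhd4, which starts 0.0840 kb from Dad1 on the opposite strand, was at -0.25 (SE 0.11). The nearest genes past the threshold were Slc7a8, 0.528 Mb away at 2.27, and Myh6, 0.713 Mb away at -8.01. The part of the chromosomal neighbourhood in the values of Ddost and Dad1 was not tested.

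**Figure D4:**
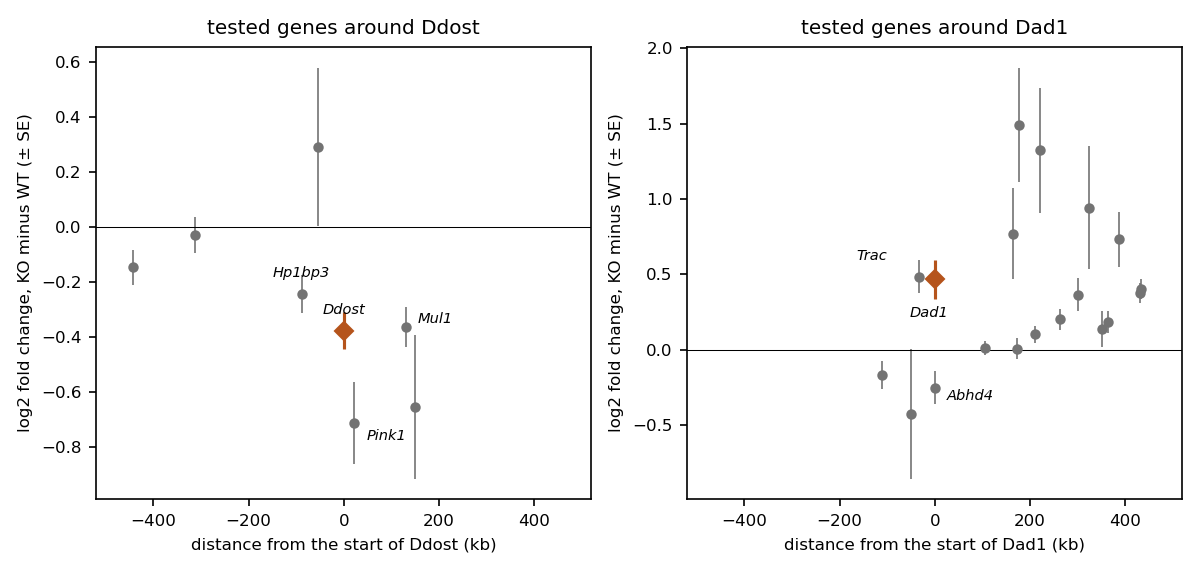
Log2 fold change (KO minus WT) with its SE of every tested gene that starts within 500 kb of the start of Ddost (left) and of Dad1 (right), against the distance in kb from that start; diamonds are Ddost and Dad1. With Ddost and Dad1 themselves counted, 7 of 8 genes lie below 0 on the left and 16 of 19 above 0 on the right.

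In the assembly stage, the leading genes were Alg1, Alg6 and Alg8. ALG1 adds the first mannose on the cytosolic face of the ER, and ALG6 and ALG8 add the first and the second glucose in its lumen, the glucose cap by which the OST recognises a finished glycan. Alg8 had 31.0, 30.6 and 31.5 CPM in KO replicates 1 to 3, against 36.6, 33.7 and 39.1 CPM in WT replicates 1 to 3. Alg1 had 21.0, 22.1 and 21.1 CPM in KO replicates 1 to 3, against 25.4, 24.4 and 24.1 CPM in WT replicates 1 to 3. Alg6 had 8.44, 8.90 and 8.85 CPM in KO replicates 1 to 3, against 10.3, 9.82 and 10.3 CPM in WT replicates 1 to 3. In each of the 3 the groups did not overlap, and the KO samples lay close together. The Alg8 log2 fold change was -0.23 (SE 0.07, 95% interval -0.39 to -0.08), that of Alg1 -0.20 (SE 0.06, 95% interval -0.34 to -0.07) and that of Alg6 -0.22 (SE 0.08, 95% interval -0.41 to -0.02). The edgeR adjusted p values were 0.181, 0.184 and 0.294. Without KO replicate 1 and WT replicate 1 together, Alg8 was at -0.23, Alg1 at -0.17 and Alg6 at -0.18. In TPM, Alg6 was at -0.34 on the log2(TPM + 1) scale and -0.38 on the log2(TPM + 0.1) scale. Alg1, Alg3, Alg9 and Dpm1 overlap another protein-coding gene in the annotation, as do Rpn2, Man2a2, Mgat2 and Mgat5, and how the authors counted shared reads is not given in the sources used here.

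The other 13 assembly genes ranged from -0.19 to 0.09. Dpagt1, which starts the glycan by placing the first sugar on dolichol, was at -0.12 in log2 fold change. Its partners in the next step, Alg13 and Alg14, which form the enzyme for the second sugar, were at -0.08 and -0.19. In these 3 genes the KO samples also lay below the WT samples without overlap in CPM, but not in TPM, and the 95% intervals took in 0, from -0.27 to 0.02 for Dpagt1 and from -0.48 to 0.09 for Alg14. The mannosyltransferases Alg2, Alg11, Alg3, Alg9 and Alg12 lay between -0.12 and -0.01 in CPM. On the log2(TPM + 1) scale Alg11 was at -0.25, with 8.99, 8.59 and 7.90 TPM in KO, against 10.2, 10.4 and 10.3 TPM in WT and no overlap. Alg10b, which adds the last glucose, was at 0.02, and Alg5, which makes its donor dolichol-phosphate-glucose, at -0.04. Of the 3 subunits of dolichol-phosphate-mannose synthase, the catalytic Dpm1 was at -0.07, Dpm2 at -0.06 and Dpm3 at 0.09 with a 95% interval of -0.23 to 0.41.

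Of the trimming enzymes, the ER glucosidases lay lowest. Mogs (glucosidase I) removes the outermost glucose right after transfer, and Ganab is the catalytic subunit of glucosidase II, which removes the other two and so sets whether a glycoprotein binds calnexin. Mogs had 163, 192 and 186 CPM in KO replicates 1 to 3, against 226, 208 and 209 CPM in WT replicates 1 to 3. Ganab had 279, 279 and 286 CPM in KO replicates 1 to 3, against 330.0, 295 and 302 CPM in WT replicates 1 to 3. Neither gene's groups overlapped, and WT replicate 1 was the highest sample of both. The Mogs log2 fold change of -0.25 with an SE of 0.07 had a 95% interval of -0.42 to -0.08 and an edgeR adjusted p of 0.185, and the Ganab log2 fold change of -0.14 with an SE of 0.06 one of -0.27 to -0.00 and 0.319. Without KO replicate 1 and WT replicate 1 together they were -0.14 and -0.08, and Ganab was at -0.09 without WT replicate 1 alone.

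The 11 Golgi enzymes lay near 0 in CPM, with a median log2 fold change of -0.01, 7 below and 4 above, and none with groups that did not overlap. In TPM the sum of these 11 was lower in every KO sample than in every WT sample, at 511, 551 and 546 TPM in KO, against 555, 601 and 579 TPM in WT. B4galt1 had 384, 463 and 436 CPM in KO replicates 1 to 3, against 421, 561 and 503 CPM in WT replicates 1 to 3. WT replicate 1 lay below KO replicates 2 and 3, so the groups overlapped, and the log2 fold change of -0.21 with an SE of 0.11 had a 95% interval of -0.47 to 0.05. It was -0.32 without WT replicate 1, -0.11 without WT replicate 2 and -0.14 without KO replicate 1. In CPM the Golgi mannosidases overlapped between the groups in all 4 genes; MAN1A and MAN1A2 trim before the first branch is added. Man1a had 112, 127 and 130.0 CPM in KO, against 109.7, 135 and 119 CPM in WT (log2 fold change of 0.02 with an SE of 0.09). Man1a2 had 83.3, 92.2 and 93.5 CPM in KO, against 85.5, 90.6 and 93.5 CPM in WT (log2 fold change of -0.00 with an SE of 0.06). Their 95% intervals were -0.19 to 0.23 and -0.15 to 0.14. In TPM, Man1a2 had 44.9, 48.2 and 47.4 TPM in KO, against 49.8, 49.5 and 50.7 TPM in WT, without overlap, and its log2 fold change on log2(TPM + 1) was -0.09. Man2a1 and Man2a2 encode the mannosidases that act after MGAT1 and open the way to complex glycans. Man2a1 had 58.5, 57.8 and 58.2 CPM in KO, against 63.1, 59.2 and 54.5 CPM in WT (log2 fold change of -0.02 with an SE of 0.06). Man2a2 had 78.5, 77.6 and 79.2 CPM in KO, against 86.0, 66.1 and 73.5 CPM in WT (log2 fold change of 0.06 with an SE of 0.09). Neither ratio within these pairs differed past the spread of the samples, at 0.03 for Man1a over Man1a2 (exact permutation p = 0.6) and -0.11 for Man2a1 over Man2a2 (exact permutation p = 0.3), both as log2 ratios in KO relative to WT.

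The branching and capping transferases showed no difference past the threshold. Their 95% intervals, in CPM, speak only of the spread among these 6 samples. Mgat1, which starts the first antenna, had a log2 fold change of 0.01 (95% interval -0.11 to 0.12), Mgat2, which starts the second, at -0.04 (-0.18 to 0.11), and Mgat4a, a further branching enzyme, at -0.01 (-0.16 to 0.14). Mgat5, the branching enzyme known for its part in T cells, was at -0.14 (-0.35 to 0.06), and at -0.04 without WT replicate 2 and -0.09 without KO replicate 1. Fut8, which adds the core fucose, was at -0.02 (-0.18 to 0.15), and St6gal1, which caps galactose with sialic acid, at 0.02 (-0.19 to 0.22).

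Of 67 other genes of N-glycosylation, for dolichol and sugar donor supply, other OST subunits, ER quality control and further Golgi steps, 63 were tested. None passed the threshold in either direction by edgeR, against 0.674% of all tested genes. At an unadjusted p under 0.05 there were 2 higher and 7 lower of the 63, where 8.47% of all tested genes were higher and 6.6% lower. DESeq2 called 1 of them, Slc35a1, and 3.95% of all genes it tested. Their median log2 fold change was -0.05. The other OST subunits, Ost4, Tmem258 and Krtcap2, were at -0.12, -0.13 and -0.03. In CPM the groups overlapped in Ost4 and Krtcap2 but not in Tmem258. Slc35a1, which carries CMP-sialic acid into the Golgi, had 30.2, 29.1 and 28.5 CPM in KO, against 34.0, 34.1 and 37.4 CPM in WT. Its groups did not overlap (log2 fold change of -0.26, SE 0.06, edgeR adjusted p 0.125). Nans, the sialic acid synthase, and the sialyltransferase St3gal4 had log2 fold changes of -0.16 and -0.20, Prkcsh, the regulatory subunit of glucosidase II, was at -0.20, and Srd5a3, which makes dolichol from polyprenol, was at -0.16. Edem2, which helps to send misfolded glycoproteins to degradation, had 79.2, 74.8 and 77.3 CPM in KO, against 62.1, 68.8 and 71.1 CPM in WT, with every KO sample above every WT sample (log2 fold change of 0.19, SE 0.06, edgeR adjusted p 0.215).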

How the data were processed

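Bulk mRNA of 3 KO and 3 WT iTreg samples was sequenced. The submitters' processing notes name FastQC, a read quality check, and HISAT2, an aligner. The build, the gene models, the counter and all versions were not given in the sources used here. The authors, per the file headers and values, deposited estimated counts and TPM per gene for each sample, and 23.5 to 25.2% of genes in a library had counts that were not whole. Expected counts from the deposited tables were rounded to whole numbers. Of 21899 genes, 12768 passed edgeR's filterByExpr. After TMM scaling (factors 0.988 to 1.01), the 2 genotypes were set against each other in edgeR 4.0.16 (quasi-likelihood F test, two-sided, robust dispersion, no covariate). Benjamini-Hochberg adjustment ran over every tested gene, with a threshold of 0.05. Log2 fold changes are KO minus WT. Each SE in edgeR is the size of the log2 fold change divided by the square root of the test's F statistic. The 95% intervals multiply this SE by a t quantile. CPM are TMM-scaled. Levels were compared between genes in the deposited TPM only. Positions come from GENCODE M21, which matched 21806 identifiers and not 93, the one of Tusc3 among these. The smallest count of a member in any library was 150, and 27 members had whole counts in every library.

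The 38 members, the other gene lists and the rules were chosen with earlier results of these data known. Per-sample values are given by rule for members past the threshold, members whose groups do not overlap at an unadjusted p under 0.05, the 3 of smallest p in each stage and 4 paralogue pairs, and for the 6 other pathway genes of smallest p. Ostc, Alg11, Alg12, the other OST subunits, Cd4, Foxp3, Ikzf2, the neighbouring genes and the 5-letter motifs were chosen after their values were seen. Of the 6 other pathway genes, 4 are given by their log2 fold change.

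Alternatives were DESeq2 1.42.0, its size factors in edgeR, no filter, a filter of mean CPM of at least 1, each sample left out, KO replicate 1 and WT replicate 1 left out together, KO replicates 2 and 3 summed, a replicate block, and limma 3.58.1 on log2(TPM + 1) and log2(TPM + 0.1) for genes of mean TPM of at least 1. KO replicates 2 and 3 were the closest pair (biological coefficient of variation 2.97%, against 7.12 to 14.8% in other pairs of 1 group) but differed beyond sampling noise (chi-square per gene 3.57). The methods were tested on simulated data with known changes and the same dispersion for every gene and sample, unlike the unequal spread of these samples. The recovery required there covered only changes larger than that of any member. R 4.3.3, Python 3.11.15, pandas 2.3.3, scipy 1.17.1 and matplotlib 3.10.9 were used.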

Additional observations from a re-analysis of the deposited data

How the results depend on the processing

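The count of genes past the threshold, 86 by the edgeR fit reported, was 531 with DESeq2, 133 with no filter, 538 when KO replicate 1 and WT replicate 1 were both left out, 8 with KO replicates 2 and 3 summed, 49 with limma on log2(TPM + 1) and 4 to 93 with 1 sample left out. Members past the threshold numbered 2 with DESeq2, 1 with no filter, 1 without both replicates numbered 1, and 0 to 1 with 1 sample left out. Other pathway genes past it numbered 1 with DESeq2 and 2 (Slc35a1 and Gfpt2) without both replicates numbered 1. Deviations of same-numbered KO and WT samples correlated at 0.18, 0.078 and 0.084, against -0.145 to 0.112 in the other KO and WT pairs. KO replicate 3 correlated more with WT replicate 2 (0.112) than with WT replicate 3. Whether the replicate numbers pair the samples is thus not settled. A replicate block gave 177 genes past the threshold and 0 members.

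The transfer median was -0.054 without both replicates numbered 1 and -0.16 to -0.07 with 1 sample left out. The assembly median was -0.12 on log2(TPM + 0.1) and -0.11 to -0.08 with 1 left out, and the trimming and branching median -0.066 on log2(TPM + 1) and -0.067 on log2(TPM + 0.1), and -0.05 to -0.01 with 1 left out. The sign changed in genes and ratios near 0. Man1a was at -0.014 with KO replicates 2 and 3 summed, -0.066 on log2(TPM + 1), -0.067 on log2(TPM + 0.1) and -0.051 to 0.10 with 1 left out. Man1a2 was at 0.00092 with the stricter filter, 0.013 without both replicates numbered 1 and -0.039 to 0.048 with 1 left out. Without both, Stt3b was at 0.0057, Magt1 at 0.042 and Man2a1 at 0.029. With 1 left out, Stt3b lay at -0.071 to 0.00034, Magt1 at -0.11 to 0.041, Man2a1 at -0.073 to 0.032 and Man2a2 at -0.022 to 0.17. Magt1 over Tusc3 was at 0.072 in CPM and -0.11 to 0.054 with 1 left out, and Man1a over Man1a2 at -0.0057 to 0.077. The cause of these changes was not tested. Some of these settings held fewer samples, while the stricter filter, the TPM scales and the ratio in CPM left none out.

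Ddost stayed below 0 (-0.41 to -0.28) and Dad1 above 0 (0.37 to 0.64) under every alternative listed. The Ddost gene passed the threshold with DESeq2, with no filter and without both replicates numbered 1, and Dad1 with DESeq2 and without WT replicate 2. With 3 samples a group, the 95% intervals of 28 of the 38 members took in 0, although the counts themselves were ample. Differences of the size seen in these 28 could not be told from none here. The intervals are not adjusted for the number of genes tested. The other members, 1 higher and 9 lower in KO, had intervals off 0, but none passed the threshold in the edgeR fit reported. At an unadjusted edgeR p under 0.05, 8.47% of all tested genes were higher and 6.6% lower.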
